A study of Mus musculus with 20 samples.

Results

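The Hox clusters are the 4 chromosomal arrays that hold the mouse Hox genes, Hoxa on chromosome 6, Hoxb on chromosome 11, Hoxc on chromosome 15 and Hoxd on chromosome 2. The 38 listed Hox genes were taken by name, 10 each in Hoxa and Hoxb and 9 each in Hoxc and Hoxd, out of 21887 protein-coding genes. A cluster window ran from the first to the last listed gene of an array with 50 kb added on either side. In mm10 the arrays without the added flanks spanned 52162417 to 52260880 (Hoxa), 96194316 to 96368254 (Hoxb), 102921131 to 103036856 (Hoxc) and 74668225 to 74765142 (Hoxd). The 4 windows held 183 of the 171719 peaks of the wild-type list. Across all lists, overlapping peaks merged into 215 Hox regions of 222457 regions in the genome.

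The data are Omni-ATAC-seq peak lists, which mark DNA that a transposase can reach, from E14Tg2a mouse embryonic stem cells of the 129/Ola strain. In these cells an auxin-inducible degron removes the endogenous CTCF, and a doxycycline-inducible transgene supplies either wild-type CTCF (WT) or CTCF with 1 substituted residue (R339Q, R342C, S354F, K365T, R377C, R377H, Q418R, R448Q or H455R). All 10 groups, WT included, were kept for 2 days in 500 µM of the auxin analog indole-3-acetic acid, with doxycycline at 1 µg/ml, and grown without feeder cells in leukemia inhibitory factor with CHIR99021 and PD0325901. Each genotype is 1 transgenic line with 2 replicates, which the authors pooled into 1 peak list, and the labels do not say whether the replicates grew as separate cultures. So no value below has a replicate error, no test between genotypes was possible, and all 9 comparisons share the WT list. In bulk cells, a site open in fewer cells and a site less open in each cell cannot be told apart.

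Hox genes encode homeodomain transcription factors that give cells their position along the body axis. They lie in order of paralogue group, and groups at one end of an array act in anterior tissues and groups at the other end in posterior ones. In pluripotent cells the arrays are held mostly silent by Polycomb repressive complexes, and retinoic acid and caudal-type factors open them during differentiation. CTCF is a zinc finger protein that stops cohesin on DNA. Of its zinc fingers, the seventh carries the R448Q and H455R substitutions and the sixth carries Q418R. The fourth carries S354F and K365T, the third R339Q and R342C, and both R377 substitutions lie in the linker that follows the fourth. Sites of CTCF within the arrays are known as boundaries between active and Polycomb-covered parts.

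The lists differed in depth and in chromosome content. Background coverage, the relative depth read from the steps of the peak values, was 5.96 in WT, 5.45 in R448Q and 3.49 to 4.66 in the other 8 lists. List sizes ran from 121032 peaks in R339Q to 171719 in WT. In the WT and K365T lists the 2 library codes in the peak names lay 28 and 42 numbers apart, against 1 in the other lists. Q418R had 5.52% of its peaks on chromosome 6, against a median of 6.82% in the other lists. R377H had 8.61% on chromosome 11, K365T 8.02% and R448Q 7.75%, against medians of 7.19%. Peaks at gene ends did not separate cell types, since 8 of 8 embryonic stem cell markers, 4 of 6 fibroblast markers, 3 of 4 neural progenitor markers and 4 of 4 mesoderm markers carried one in all 10 lists. Ctcf, the replaced gene, had a gene-end peak in every list, and this peak does not tell the transgene from the endogenous gene.

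Accessible sites were found across all 4 arrays in every genotype. WT had 49 peaks in the Hoxa window, 58 in Hoxb, 43 in Hoxc and 33 in Hoxd. The mutant lists had 34 to 46 peaks in Hoxa, 44 to 63 in Hoxb, 28 to 39 in Hoxc and 23 to 34 in Hoxd. Over the 4 windows the counts were 129 in R339Q, 141 in Q418R, 157 in R342C, 160 in R377H, 161 in S354F, 164 in R448Q, 167 in R377C, 175 in K365T and 177 in H455R, so WT had the most. The order turned when lists of equal size were used, the top 121032 peaks of each by value: WT then had 115 peaks in the windows, the fewest of all lists, and the mutants 120 to 137. Peaks covered 108.6 kb of the windows in WT, 107.0 kb in R448Q and 73.8 kb in R339Q, the least.

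**Figure D1:**
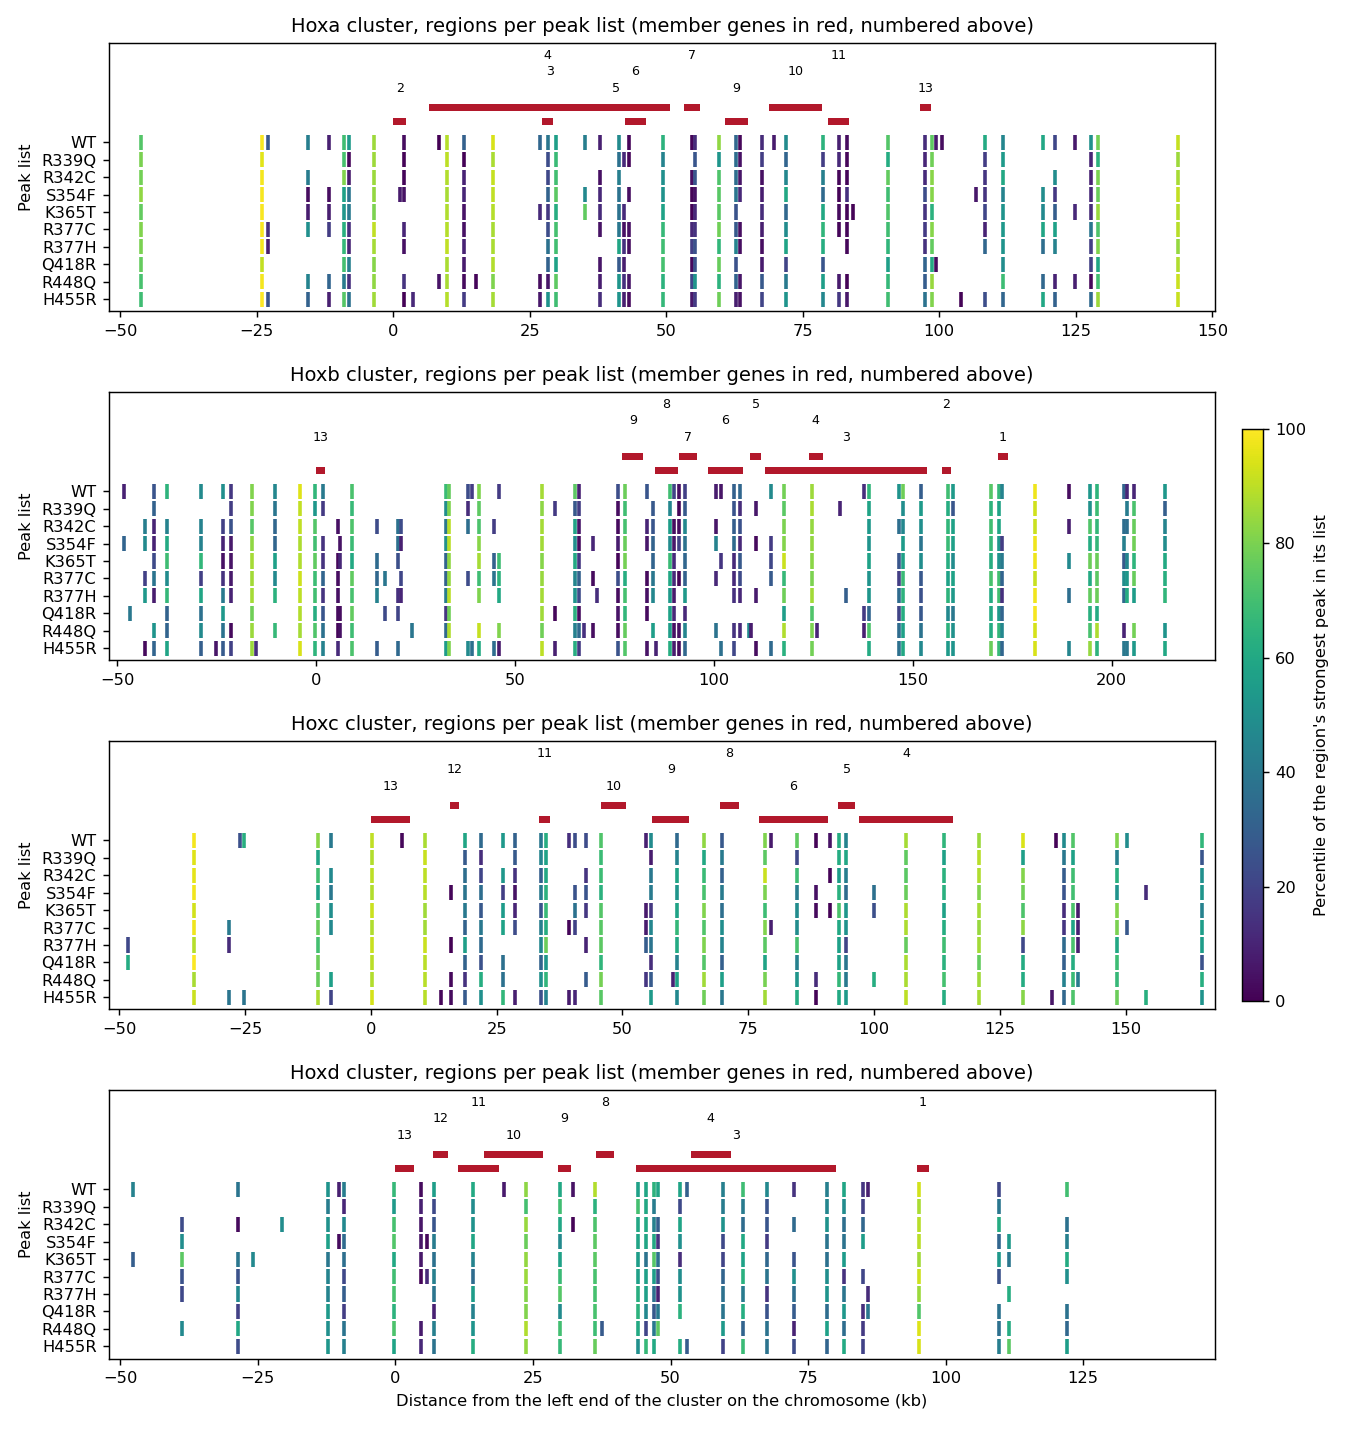
Each panel shows 1 Hox array with its 50 kb flanks, the x axis giving the distance in kb from the left end of the array on the chromosome, each row 1 peak list, and each tick a merged region coloured by the percentile of its strongest peak within that list. Unbroken columns of ticks are the 92 regions found in all 10 lists, and the gap between Hoxb13 and Hoxb9 holds many ticks that are absent from the WT row.

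Hoxd1, in an array that patterns limbs and the posterior body, carried the strongest gene-end peak of the members in WT. A gene-end peak is the strongest peak that comes to within 1 kb of the left or right end of a gene model, and its percentile is its place among all peaks of its own list. The percentile of Hoxd1 was 93.0 in WT and 72.7 (Q418R) to 94.7 (R448Q) in the mutants, with a median of 89.4. Hoxd8 stood at 88.6 in WT, 64.0 in R339Q, 71.7 in R342C, 74.7 in S354F, 74.3 in K365T, 70.9 in R377C, 70.6 in R377H, 70.7 in Q418R, 68.7 in R448Q and 76.7 in H455R, so all 9 mutants lay below WT. Because lists of different length shift percentiles, the Hoxd8 region was also ranked among the 81151 regions of the genome that all 10 lists share. There its rank was 76.1% in WT and 47.7% (R377C) to 57.0% (K365T) in the mutants. At the other end of the scale, Hoxd11, a gene of limb and kidney development, had a gene-end peak in WT alone, at the 6.76th percentile.

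The sequences before 7 starts in Hoxd and Hoxa are printed because they set starts with a peak in all 10 lists beside starts with one in none. Each is the 150 bases directly before a RefSeq start in GRCm38.p6, which has the chromosomes of mm10, read 5′ to 3′ on the gene's strand, with CG dinucleotides in capitals, and the lists named are those with a peak over the start window, which runs from 250 bases before to 50 after the start.
Hoxd1, plus strand, chr2:74762830-74762979, covered in all 10 lists: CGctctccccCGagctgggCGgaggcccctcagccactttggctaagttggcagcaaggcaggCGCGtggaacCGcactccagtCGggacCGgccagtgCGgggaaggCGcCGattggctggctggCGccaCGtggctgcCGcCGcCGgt
Hoxd8, plus strand, chr2:74704465-74704614, covered in all 10 lists: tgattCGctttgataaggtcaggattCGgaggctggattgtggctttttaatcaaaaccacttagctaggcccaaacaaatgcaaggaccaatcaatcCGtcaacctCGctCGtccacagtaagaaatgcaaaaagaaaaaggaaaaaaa
Hoxd11, upstream start, plus strand, chr2:74679408-74679557, covered in no list: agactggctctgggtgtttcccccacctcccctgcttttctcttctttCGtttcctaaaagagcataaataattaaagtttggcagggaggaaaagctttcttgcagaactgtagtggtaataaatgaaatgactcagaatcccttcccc
Hoxd11, downstream start, plus strand, chr2:74682173-74682322, covered in all 10 lists: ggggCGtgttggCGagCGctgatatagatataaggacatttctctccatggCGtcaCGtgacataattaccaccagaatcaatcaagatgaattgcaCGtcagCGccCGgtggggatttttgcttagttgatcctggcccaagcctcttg
Hoxd4, plus strand, chr2:74721828-74721977, covered in no list: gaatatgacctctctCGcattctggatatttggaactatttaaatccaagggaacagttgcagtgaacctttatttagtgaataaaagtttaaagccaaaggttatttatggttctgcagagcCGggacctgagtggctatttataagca
Hoxa13, minus strand, chr6:52260881-52261030, covered in all 10 lists: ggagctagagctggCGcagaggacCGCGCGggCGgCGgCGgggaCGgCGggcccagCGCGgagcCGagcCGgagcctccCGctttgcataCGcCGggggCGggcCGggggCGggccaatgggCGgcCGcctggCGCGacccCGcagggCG
Hoxa6, minus strand, chr6:52208673-52208822, covered in no list: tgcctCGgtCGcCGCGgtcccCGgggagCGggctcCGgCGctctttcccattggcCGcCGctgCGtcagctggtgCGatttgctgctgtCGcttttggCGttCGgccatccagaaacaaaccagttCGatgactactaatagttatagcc

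The number of CG dinucleotides in these stretches was 16 for Hoxd1, 5 for Hoxd8, 1 and 8 for the upstream and downstream Hoxd11 starts, 2 for Hoxd4, 25 for Hoxa13 and 16 for Hoxa6. Hoxd1 and Hoxa6 thus had the same number of CG dinucleotides, and the start of Hoxd1 was covered by a peak in all 10 lists and that of Hoxa6 in none. Over the Hoxd8 start window peaks covered all 300 bases in WT and R448Q and 102 (Q418R) to 195 (R342C) bases in the other 8 lists. The peak over this window was the gene-end peak given above in WT (88.6), R448Q (68.7) and H455R (76.7). In the other mutants it was at 16.0 (K365T) to 49.4 (R339Q), and their gene-end values came from a stronger peak of the same region. The RefSeq table held 24 start windows of 22 members. A peak touched 11 of them in all 10 lists, 5 in some and 8 in none. Among all protein-coding genes in the table, 57.3% of 21263 windows were touched in all lists, 9.07% in some and 33.6% in none. Median GC content was 62.0% in the Hox windows touched in all lists and 47.7% in those touched in none, beside 62.0% and 46.0% over the protein-coding genes. The motif TATAAA, searched on both strands, was in 4 of the 24 Hox windows (16.7%) and in 12.6% of the protein-coding windows. TGATTNAT, the motif of Hox proteins bound with Pbx, was in 2 Hox windows (8.33%) and in 2.75% of the protein-coding windows. The core motif of CTCF was in 0 Hox windows and in 0.560% of the others.

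Of the 38 members, 27 had a gene-end peak in all 10 lists, 9 in some lists and 2 (Hoxb3 and Hoxd10) in none. Hoxb3 and Hoxd10 carried peaks within the gene all the same, 9 and 3 of them in WT. The RefSeq start window of Hoxd10 was covered in all 10 lists, by a peak at 82.9 in WT and 69.9 (R339Q) to 88.2 (R448Q) in the mutants. For comparison, 64.7% of the 21887 protein-coding genes carried one in all 10 lists. Of genes with one in WT, 79.4% of the Hox members and 91.5% of all protein-coding genes had one in all 9 mutants. By array, 8 of 10 Hoxa members, 6 of 10 Hoxb members, 7 of 9 Hoxc members and 6 of 9 Hoxd members had one in every list. By position on the body axis, the counts were 4 of 7 for anterior members (paralogue groups 1 to 3), 10 of 15 for central members (4 to 8) and 13 of 16 for posterior members (9 to 13). The median percentile in WT was 65.5 for anterior, 47.3 for central and 64.4 for posterior members. Hox gene ends were less strongly accessible than those of protein-coding genes at large: the median over the 34 members with a WT peak was 62.1, against 84.7 over all 15483 protein-coding genes with one. Of the 306 pairs of a member with a WT gene-end peak and a mutant list, 25 (8.17%) lacked a peak in the mutant, against 3.54% of such pairs over all protein-coding genes. Most of the 25 came from 2 members: Hoxd11 (6.76 in WT) had a gene-end peak in 0 mutants and Hoxd4 (30.7 in WT) in 3. Counted by overlap of the WT gene-end peak itself, the Hox share was again 8.17%, beside 3.96%. The shares were not matched for the strength of the WT peaks. With a window of 2 kb the Hox share was 3.60%, beside 2.96% for all genes.

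**Figure D2:**
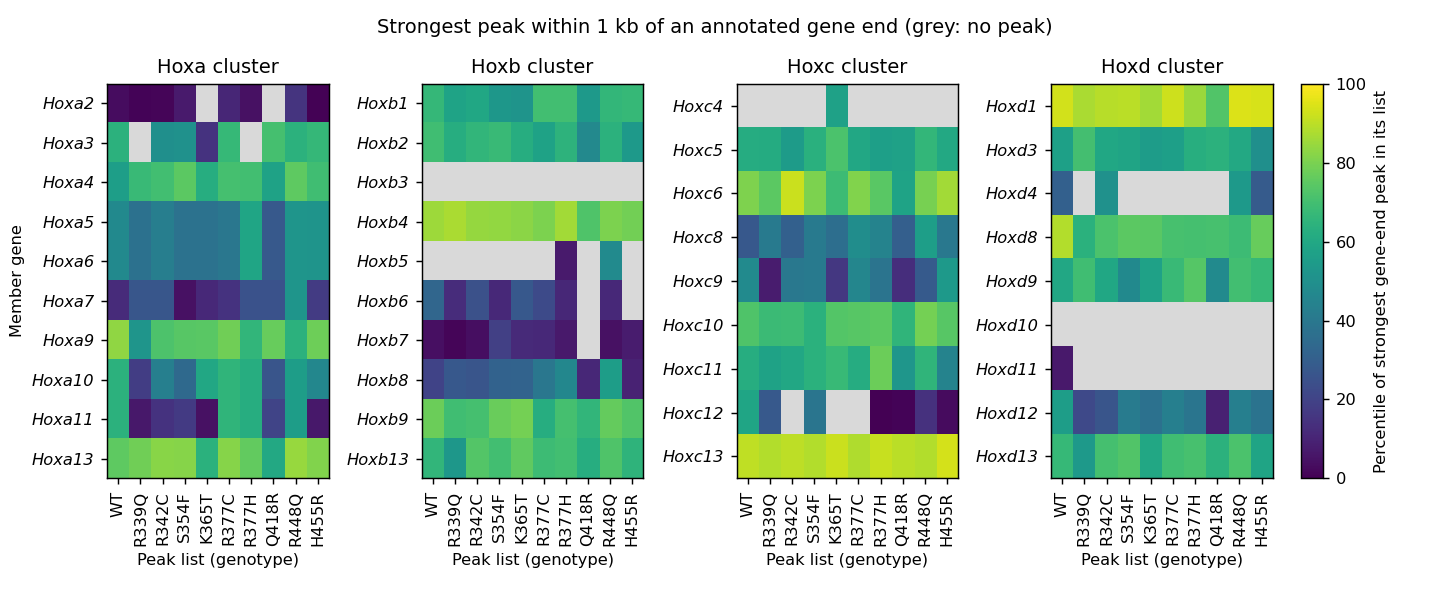
Rows are the 38 Hox genes by array, columns the 10 peak lists, and the colour gives the percentile of the strongest gene-end peak within its list, with grey for no peak within 1 kb. Hoxd1, Hoxc13 and Hoxb4 are high in every list, Hoxb3 and Hoxd10 are grey throughout, and Hoxd11 has a peak in WT only.

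In Hoxa, the strongest gene ends in WT were those of Hoxa9, a regulator of blood progenitors, and Hoxa13, which acts in digits and the urogenital tract. The Hoxa9 peak (52221648 to 52222480 in WT) lay to the left of this minus-strand gene, away from its start. No list had a peak over the RefSeq start window of Hoxa9. The percentile of Hoxa9 was 83.2 in WT and 52.1 (R339Q) to 78.3 (R377C) in the mutants, with a median of 74.2, so WT was highest. Hoxa13 showed no such order, with 75.1 in WT and 60.3 (Q418R) to 84.4 (R448Q) in the mutants. Hoxa4 stood lowest in WT, at 55.9, with the mutants at 57.7 (Q418R) to 75.2 (R448Q). The weakest was Hoxa2, which patterns the hindbrain and the branchial arches, at 3.32 in WT, 0.621 (H455R) to 14.9 (R448Q) in 7 mutants, and no peak in K365T and Q418R. Hoxa3, a gene of the pharyngeal organs, was at 64.2 in WT and 14.7 (K365T) to 70.7 (Q418R) in 7 mutants, and R339Q and R377H had no peak within 1 kb. The WT peak at Hoxa3 was still overlapped by a peak in all 9 mutants. Hoxa5 and Hoxa6 share 1 peak (52203146 to 52204330), at 47.3 in WT and 27.8 (Q418R) to 58.7 (R377H) in the mutants. Hoxa10 and Hoxa11 share the WT peak between them, at 64.4. That region was found in all 10 lists, at 18.1 (R339Q) to 65.6 (R377C) in the mutants. Its WT peak comes near the limit of 1 kb from Hoxa11, so the Hoxa11 values of 4.38 to 20.6 in 6 mutants concern which peak falls within that limit. Hoxa7 was at 12.3 in WT and 4.39 (S354F) to 52.2 (R448Q) in the mutants.

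In Hoxb, Hoxb4, known for its action in blood stem cells, and Hoxb9 led in WT. Hoxb4 was at 85.5 in WT and 72.4 (Q418R) to 87.1 (R339Q) in the mutants, a narrow range that includes WT. The WT peak at Hoxb4 (96318449 to 96319483) began inside the gene. The RefSeq start window of Hoxb4 was touched by a peak in H455R alone. Hoxb9 was at 77.4 in WT and 62.1 (R377C) to 79.2 (K365T) in the mutants. Hoxb13, the most posterior member of the array, and Hoxb1 and Hoxb2, which act in the hindbrain, were at 66.0, 66.7 and 69.3 in WT, and each mutant had a peak at all 3. Hoxb5 to Hoxb8, which lie side by side, were weaker in WT. Hoxb7 was at 4.16 in WT, at 1.19 (R339Q) to 18.9 (S354F) in 8 mutants, and without a peak in Q418R. In K365T, R377C, R377H and H455R its value came from a neighbouring site that also counts for Hoxb8 in WT. Hoxb6 was at 32.9 in WT and 11.2 (R377H) to 27.5 (K365T) in 7 mutants, with no peak in Q418R and H455R. Hoxb5 had no gene-end peak in WT and one in R377H (7.14) and R448Q (47.9), at 2 different sites. Hoxb8 had a gene-end peak in every list, but at 3 different sites. The site at the WT peak was at 20.2 in WT, absent from R339Q, and at 3.19 (R342C) to 12.0 (K365T) in the other 8 mutants. The higher values in 7 mutants, up to 55.8 in R448Q, came from the site before the gene that WT lacks. Q418R thus lacked Hoxb5, Hoxb6 and Hoxb7, 3 neighbours, of which WT itself lacked Hoxb5.

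In Hoxc, Hoxc13, a gene of hair and nails, was the most even of the strong members, at 90.4 in WT and 88.1 (R377C) to 93.4 (H455R) in the mutants. Hoxc6, of the thoracic region, was at 80.8 in WT and spread from 58.1 (Q418R) to 92.0 (R342C). Hoxc8, the weakest in WT at 27.6, was higher in every mutant, from 30.3 (Q418R) to 55.9 (R448Q). In ranks among shared regions the Hoxc8 region was at 5.17% in WT and 10.0% to 32.1% in the mutants. Hoxc12 was at 58.8 in WT, at 38.9 in S354F and 27.9 in R339Q, at 0.221 to 14.3 in R377H, Q418R, R448Q and H455R, and without a gene-end peak in R342C, K365T and R377C. Its WT peak (102939166 to 102940431) was overlapped in all 9 mutants, and the region was at 14.3 (R448Q) to 55.9 (R377H) in them, so the gene-end values partly concern how near a peak comes to the gene. Hoxc4 had a gene-end peak in K365T alone, at 57.0, while its RefSeq start window was touched by a peak in all 10 lists. Hoxc9 was at 47.9 in WT and 7.44 (R339Q) to 54.1 (H455R) in the mutants. Hoxc5, Hoxc10 and Hoxc11 had peaks in all lists, at 62.0, 72.3 and 62.3 in WT.

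In Hoxd, Hoxd4 had a gene-end peak in 4 lists, from 2 different sites. The site of its WT peak (74721076 to 74721341) was at 30.7 in WT and 28.7 in H455R and absent from the other 8 lists. The values of R342C (50.6) and R448Q (53.6) came from a region inside the gene (74727060 to 74728315) that all 10 lists had, at 43.2 in WT and 19.7 (H455R) to 53.6 in the mutants. The weak WT peak at the end of Hoxd11 (74687882 to 74688100) was overlapped in 0 mutants. The 2 RefSeq starts of Hoxd11 showed the same picture in all lists, a peak over the downstream one, printed above, and none over the upstream one. Hoxd12 was at 55.7 in WT and 9.31 (Q418R) to 43.1 (R377C) in the mutants, so WT stood above all 9, as in the shared ranks (22% against 3.05% to 19.8%). Hoxd13, a gene of digit formation, was at 67.0 in WT and 54.1 (R339Q) to 73.0 (S354F) in the mutants. Hoxd3 and Hoxd9 were at 56.8 and 60.0 in WT, within the mutants' range of 49.9 (H455R) to 69.998 (R339Q) and 47.5 to 73.7.

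In each mutant, most WT peaks of the arrays were found. Of the 183 WT peaks in the windows, 98 (53.6%) were overlapped by a peak in all 9 mutant lists and 6 (3.28%) in none, beside 48.5% and 5.42% of all WT peaks. The number missing was 59 in R339Q (32.2%, beside 35.1% of all WT peaks), 37 in R342C (20.2%, beside 26.1%) and 34 in S354F (18.6%, beside 24.3%). K365T lacked 32 (17.5%, beside 28.3%), R377C 26 (14.2%, beside 20.9%) and R377H 45 (24.6%, beside 26.0%). Q418R lacked 60 (32.8%, beside 30.8%), R448Q 33 (18.0%, beside 27.7%) and H455R 26 (14.2%, beside 19.3%). The Hox share was below that of the whole list in 8 of 9 mutants. The exact (Clopper-Pearson) 95% interval, which covers counting error over peaks only, lay below the whole-list share in K365T (12.3 to 23.8%), R377C (9.50 to 20.1%) and R448Q (12.8 to 24.4%), and included it in the other 6. WT was the deepest list, so depth and the WT genotype cannot be told apart in these counts. WT and K365T are also the lists whose library codes lie far apart, and what that means for their shares was not tested. Among the 47 Hox peaks in the strongest of the 3 equal classes of the WT list by value, R339Q, R377H and Q418R lacked 1 each and the other 6 mutants 0, which allows a share of up to 7.55%. The share over all WT peaks of that class was 0.706% (H455R) to 3.86% (R339Q), so these counts are near the background. Among the 60 in the middle class, the missing share ran from 3.33% in K365T to 28.3% in R339Q, respectively beside 25.4% and 35.3% of all WT peaks of that class. Among the 76 in the weakest class it ran from 27.6% in H455R to 61.8% in Q418R, beside 42.2% and 61.0% of all WT peaks of that class. Of the 59 peaks missing in R339Q, 41 were of the weakest class, 17 of the middle one and 1 of the strongest.

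**Figure D3:**
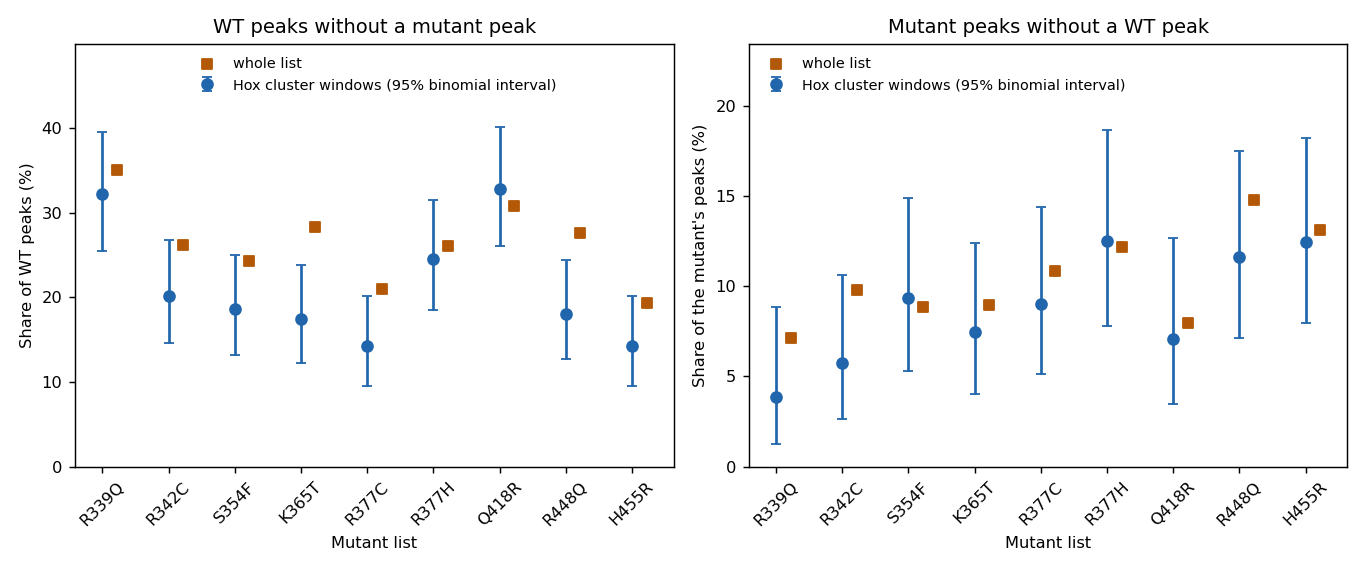
The left panel gives the share of WT peaks with no overlapping peak in each mutant list, the right panel the share of each mutant's peaks with no overlapping WT peak, in percent, for the Hox windows (circles with exact 95% binomial intervals, counting error only) and for the whole list (squares). On the left the Hox share runs from 14.2% in R377C and H455R to 32.8% in Q418R, and on the right from 3.88% in R339Q to 12.5% in R377H.

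Some mutant peaks had no WT counterpart. They numbered 5 in R339Q (3.88% of its Hox peaks, beside 7.14% of its whole list), 9 in R342C (5.73%, beside 9.77%) and 15 in S354F (9.32%, beside 8.82%). K365T had 13 (7.43%, beside 8.94%), R377C 15 (8.98%, beside 10.8%) and R377H 20 (12.5%, beside 12.1%). Q418R had 10 (7.09%, beside 7.97%), R448Q 19 (11.6%, beside 14.8%) and H455R 22 (12.4%, beside 13.1%). The exact 95% interval of each of the 9 shares included the share of the whole list. Their median percentile within the mutant list was between 9.11 (H455R) and 24.2 (K365T), and the strongest reached 27.6 (R339Q) to 74.7 (K365T). The Hox share was below that of the whole list in 7 of 9 mutants. With lists of equal size the direction turned: the Hox shares, 17.6% to 24.0%, were above those of the whole lists, 15.8% to 21.1%, in 8 of 9, all but R448Q. Hoxb held the most of them in every mutant, from 4 in R339Q to 11 in R377H, and Hoxa had 0 to 3. Hoxb also had the most peaks of any array in every list, 44 to 63 in the mutants. As shares of the array's peaks these were 9.09% (R339Q) to 17.5% (R377H) in Hoxb and 0% (R342C) to 6.52% (H455R) in Hoxa. The Hoxb share was above that of the whole list in all 9 mutants, and its 95% interval included the whole-list share in each.

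The arrays were also set against their own chromosomes, because chromosome content differed between lists. In Q418R, 18 of 49 WT peaks of Hoxa (36.7%, 95% interval 23.4 to 51.7) were missing, beside 42.3% of WT peaks on chromosome 6, the chromosome with fewer peaks in that list. In R377H, 11 of 63 Hoxb peaks (17.5%) had no WT counterpart, beside 19.5% on chromosome 11, the chromosome with more peaks in that list. In R448Q the Hoxb share was 16.1%, beside 16.6% on chromosome 11. Hoxb in Q418R was missing 21 of 58 WT peaks (36.2%, interval 24.0 to 49.9), beside 29.2% on chromosome 11, where the share of that list was near that of the others (7.30%, beside 7.19%). The part of chromosome content in these Hox values was not tested further.

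**Figure D4:**
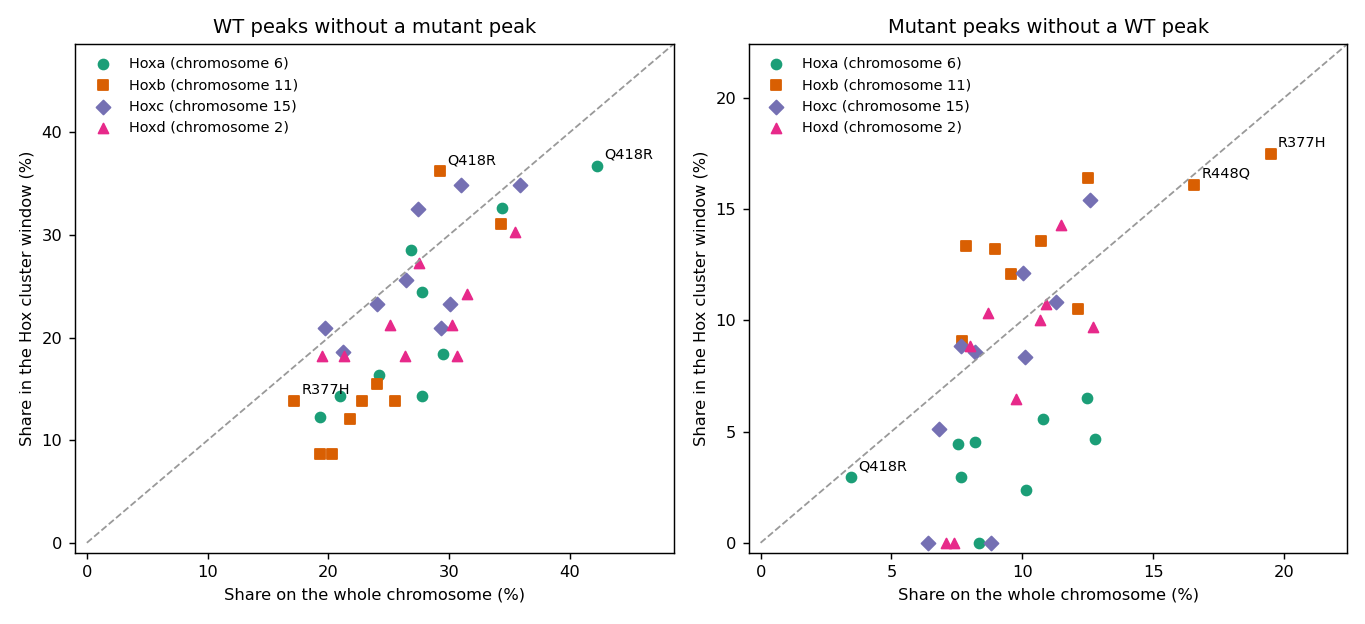
Each point is 1 Hox array in 1 mutant list, with the share on its whole chromosome on the x axis and the share in the Hox window on the y axis, in percent, and the dashed line marks equal shares. In the left panel Q418R is the point farthest right for Hoxa (42.3% on chromosome 6), and in the right panel R377H is farthest right for Hoxb (19.5% on chromosome 11).

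The longest stretch without a member gene, 74.7 kb between Hoxb13 and Hoxb9, held many of the sites that WT lacked. The stretch was picked with these values known. It contained 23 regions, 7 of them (30.4%) in all 10 lists, beside 36.5% of all regions of the genome. A WT peak was lacking in 12 (52.2%), beside 26.5% of all regions and 21.4% of the 145 regions within the arrays. WT had peaks in 11 of the 23, R339Q in 10, S354F and Q418R in 12, R342C, K365T, R377H and R448Q in 14, and R377C and H455R in 16. Within the arrays, 13 regions were found in at least 3 mutants and not in WT, and 8 of them lay in this stretch. They were 34.8% of its regions, beside 7.19% over the genome. The region 96209338 to 96210072 was at the 22.9th percentile in R342C, 34.5th in K365T, 33.4th in R377C, 43.8th in R377H and 29.0th in H455R, and absent from the other 5 lists. The region 96214718 to 96215091 was at 14.0 (R377H) to 37.4 (R342C) in 6 mutants. The region 96199726 to 96200070 was in 7 mutants but weak, at 1.32 (R448Q) to 12.0 (H455R). The region 96238807 to 96239088 was at 17.6 (R342C) to 38.5 (R377C) in 4 mutants. The other 4 in the stretch (starting at 96200203, 96215435, 96254353 and 96263741) were in 3 or 4 mutants, at 1.69 to 22.9. These sites thus ranged from the weakest of a list to the middle of it. A region just before Hoxb8 (96278821 to 96279117) was at 26.2 (R342C) to 55.8 (R448Q) in 7 mutants and absent from WT, Q418R and H455R. One inside Hoxc4 (103021088 to 103021331) was in S354F, K365T and R448Q only, at 36.5, 24.2 and 62.4. A region over the start of Hoxa5 (52204432 to 52204765) was in 7 mutants, at 3.93 (R377C) to 14.0 (R448Q), and absent from WT, R342C and S354F. Regions inside Hoxb5 (96304552 to 96305260) and Hoxc12 (102936685 to 102937572) were in 4 mutants each, none above 7.14. Chromosome 11 took a larger share of the R377H, K365T and R448Q lists, as given above. R377C and H455R had 7.18% and 7.13% of their peaks there, beside a median of 7.29% in the other lists. The part of chromosome content in these counts was not tested.

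Of 52 regions within the arrays that lay in the stronger 50% of the WT list, 47 were in all 10 lists and 5 (9.62%) were missing from 1 or 2 mutants. Over the genome, 20.2% of 84689 such regions were missing from at least 1 list. The strongest of the 5, between Hoxb13 and Hoxb9 (96234924 to 96235595), was at the 80.5th percentile in WT and 60.7 (H455R) to 91.3 (R448Q) in 8 mutants, and was absent from Q418R. A region inside Hoxb3 (96340663 to 96341227) was at 51.4 in WT and absent from R339Q and S354F, and stood at 18.0 to 36.6 in the other 7. One between Hoxc12 and Hoxc11 (102947313 to 102947665) was at 53.2 in WT and absent from R339Q and R377H. Inside Hoxd3, 74715683 to 74716161 was at 58.9 in WT and absent from R339Q and H455R, and 74719680 to 74720170 was at 58.4 in WT and absent from R448Q. R339Q lacked 3 of the 5, and K365T, R342C and R377C lacked none of them.

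The strongest regions of Hoxa, Hoxb and Hoxc in WT lay in the flanks, and that of Hoxd at Hoxd1. The Hoxb one, 6.33 kb beyond Hoxb1 (96374585 to 96375337), was at the 97.4th percentile in WT and 91.6 (R377C) to 98.6 (Q418R) in the mutants. The Hoxc one, 34.8 kb before Hoxc13 (102885741 to 102886380), was at 98.3 in WT and 86.8 (R448Q) to 99.6 (Q418R) in the mutants. These strong sites were present in every list with ranges that included WT.

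Among the 92 Hox regions found in all 10 lists, WT did not stand apart as a whole. A region's rank is its place, in percent, among the shared regions of the genome by its highest value in a list, which gives sets of equal length. The WT rank was above all 9 mutants in 12 regions (13%, beside 9.69% of all shared regions) and below all 9 in 10 regions (10.9%, beside 12.7%), shares near the background. The spread from the lowest to the highest of the 10 lists had a median of 24.7 percentage points, beside 26.6 over the genome. The largest spread was in a region 13.1 kb beyond Hoxc4 (103049958 to 103051452), with a rank of 88.2% in WT, 68.4% in R377C, 37.9% in R339Q and 6.30% in R377H. The largest spread in Hoxb was inside Hoxb3 (96311591 to 96312481), at 56.4% in WT and 35.0% (H455R) to 86.4% (K365T) in the mutants. In Hoxd it was inside Hoxd3 (74715001 to 74715370), at 32.4% in WT and 12.0% (Q418R) to 56.3% (K365T) in the mutants. The next 4 regions were chosen after their values were seen. Regions with WT lowest included one at the end of Hoxa4, inside the longer Hoxa3 gene model (52191795 to 52192524), at 22.3% in WT and 37.3% (Q418R) to 57.8% (R448Q) in the mutants, and one inside Hoxc9 (102981454 to 102982377), at 7.43% in WT and 17.5% (H455R) to 41.0% (R377C). In the stretch between Hoxb13 and Hoxb9, 2 neighbouring regions stood on opposite sides of WT. The first (96226717 to 96227315) was at 37.7% in WT and 5.53% (Q418R) to 30.04% (R339Q) in the mutants, and the second (96227395 to 96228167) at 51.9% in WT and 62.4% to 82.4% in the mutants.

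**Figure D5:**
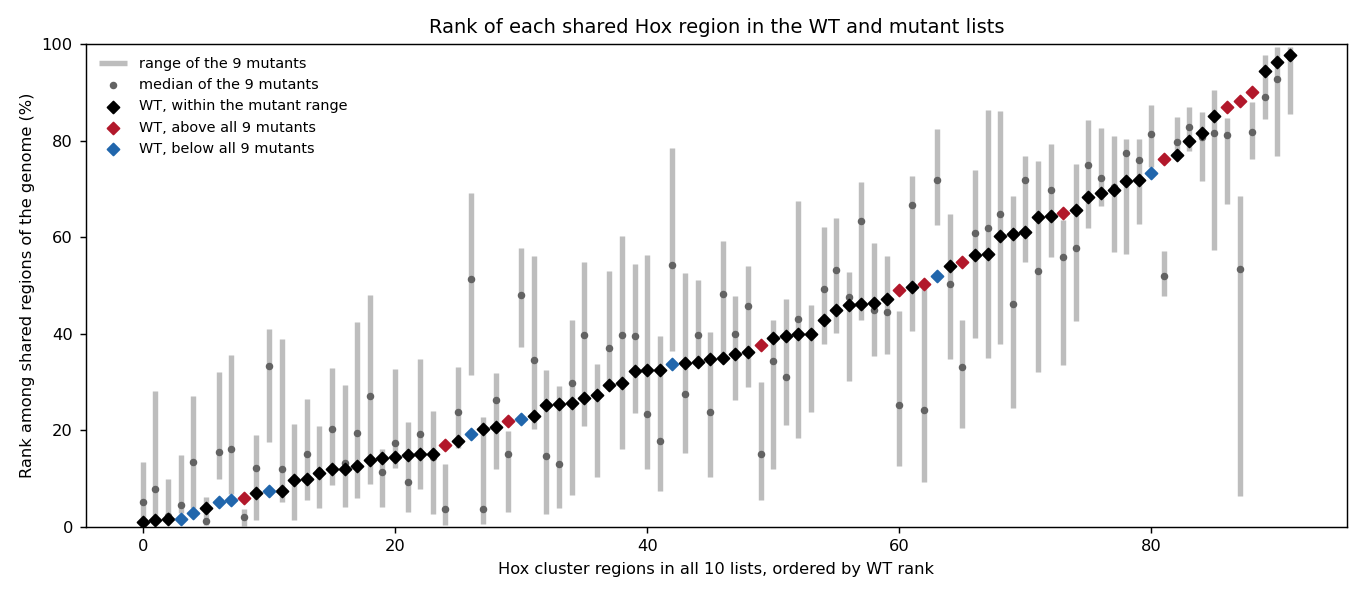
Each position on the x axis is 1 of the 92 Hox regions found in all 10 lists, ordered by WT rank, and the y axis is the rank in percent among the 81151 shared regions of the genome, with a grey line for the range of the 9 mutants, a dot for their median and a diamond for WT. In 12 regions the WT diamond lies above the grey line and in 10 below it.

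Over the 4 arrays together, R448Q had the highest median rank difference from WT. It held the highest rank of the 10 lists in 20 of the 92 regions (21.7%), beside 13.8% of all shared regions. In R448Q, 57 of the 92 ranked higher than in WT and 35 (38.04%) lower, beside 48.4% lower over all shared regions. The other mutants had 47 (Q418R) to 55 (R377H) of the 92 higher than WT, so this count sets R448Q little apart. The median difference from WT was 5.32 percentage points in R448Q, beside 0.353 over the genome, and 0.162 (Q418R) to 2.42 (R377H) in the other mutants. In R448Q the median difference was 2.11 in Hoxa, 5.50 in Hoxb, 5.69 in Hoxc and 5.37 in Hoxd, beside -0.39, 1.35, 0.312 and 0.115 on their chromosomes. It was not the highest in each array: the median was 4.61 for R377H and 2.88 for R342C in Hoxa, and 6.36 for R342C in Hoxd. R448Q was also the list with the second highest depth after WT, and the part of depth in this result was not tested.

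Most genes that act on or with the Hox clusters had a gene-end peak in every genotype. Of 48 regulator genes listed for these clusters, 42 had a gene-end peak in all 10 lists, 4 in some and 2 in none, beside 64.7% of all protein-coding genes in all 10 lists. The 9 TALE cofactors, which bind DNA together with Hox proteins, had one in all lists, among them Meis1, at 74.2 in WT, and Meis2, at 76.7. The 12 Polycomb genes also did, among them Ezh2 (93.1 in WT), the methyltransferase, and Cbx7 (96.0), a chromodomain subunit of embryonic stem cells. Of 7 retinoic acid genes, 6 had one in all lists and the receptor gene Rarb in none. Of 8 trithorax and demethylase genes, 7 had one in all lists, and Kdm6a, an H3K27 demethylase gene, had one at 97.4 in WT and none within 1 kb in K365T, R377C and Q418R. Of 6 boundary factor genes, 4 had one in all lists. Rad21, which encodes a cohesin subunit, was at 40.7 in WT and 11.6 in H455R and had none within 1 kb in the other 8 mutants. Zfp143 had none within 1 kb in R377H. Whether mutant peaks overlapped the WT peaks of Kdm6a, Rad21 and Zfp143 was not tested, so a lost site cannot be read from these values. Among related homeobox genes, Cdx1, Cdx2, Cdx4 and Gbx2 had one in all lists. Evx1, next to Hoxa13, had one in 8 lists (29.5 in WT and none in R377H and Q418R), and Evx2, next to Hoxd13, in none. Of 17 listed neighbours of the arrays, 13 had one in all lists, 3 in some and 1 (Mira) in none. Hoxaas3 had one in 8 lists, Halr1 in 7 and Hottip in 2. Hotair, a noncoding RNA gene in Hoxc, had one in all lists, at 53.2 in WT and 12.99 (R339Q) to 65.7 (H455R) in the mutants. The region with its WT value (102947313 to 102947665) was absent from R339Q and R377H. The R339Q value came from another region (102942538 to 102943670), so the Hotair values concern different sites.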

How the data were processed

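Omni-ATAC-seq was run on 10 genotypes with 2 replicates each, and the deposited files are 10 narrow-peak lists, 1 per genotype with both replicates pooled by the authors. Trim Galore, Bowtie2, MACS2, deepTools and mm10 are named in the submitters' processing notes. Shifting of read ends, duplicate removal and the calling threshold were not stated. The peak value deposited by the authors was read as MACS2 fold enrichment over background, a ratio, from its range and its steps. The steps also gave the relative depth. Fold values were used only to rank peaks within a list, as percentiles, or within the regions shared by all 10 lists.

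Peaks were compared by an overlap of at least 1 bp. Gene models and start windows came from RefSeq tables of GRCm38.p6, the gene table without strand, and coordinates are 1-based. Cluster windows carried 50 kb flanks, and a gene end was searched within 1 kb. Shares have exact 95% Clopper-Pearson intervals, which cover counting error over peaks only. With 1 pooled list per genotype no test between genotypes was run. Named in full were, per cluster, the 2 strongest and the weakest member in WT, members with a gene-end peak in only some lists, the strongest region and that with the largest rank spread. Regions within a cluster were also named where a mutant lacked one of the stronger 50% of WT, or where at least 3 mutants had one that WT lacked. The strongest Hoxa region and that with its largest spread are not reported here. A gene-end value is the strongest peak in reach, so in 7 members it comes from different sites in different lists. The members and lists were chosen with earlier results of these data known. The overlap code was tested on simulated data. Python 3.11.15, numpy 2.4.6, pandas 2.3.3, scipy 1.17.1 and matplotlib 3.10.9 were used.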

Additional observations from a re-analysis of the deposited data

How the results depend on the processing

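No paired analysis was possible because each deposited list pools both replicates of a genotype, and leaving out a replicate was not possible for the same reason. With lists of equal size, WT had 115 Hox peaks, and the missing share was 18.3% in R339Q, 13% in R342C, 12.2% in S354F, 10.4% in K365T, 18.3% in R377H and 17.4% in Q418R. The whole lists then gave 21.6%, 17.5%, 16%, 18.5%, 19.1% and 18.9%, so Q418R moved from above its whole list to below it, and all 9 mutants were below. The share without a WT peak was then 24.0% in R339Q, 19.7% in R342C, 17.6% in S354F, 19.0% in K365T, 18.0% in R377C, 19.7% in R377H, 18.4% in Q418R and 20.0% in R448Q. Limited to the stronger 50% of the list, the missing share was 8.86% in R339Q, 2.53% in R342C, 2.53% in S354F, 1.27% in K365T, 1.27% in R377C, 3.80% in R377H, 6.33% in Q418R, 3.80% in R448Q and 1.27% in H455R. These are shares of 79 WT peaks. The whole list gave, in the same order, 10.8%, 5.46%, 5.24%, 6.19%, 3.59%, 5.82%, 7.80%, 8.09% and 3.24%. The share without a WT peak was then 0% in R339Q, 0% in R342C, 1.54% in S354F, 1.37% in K365T, 0% in R377C, 2.63% in R377H, 1.79% in Q418R, 3.90% in R448Q and 2.63% in H455R. Requiring an overlap of 50% of the peak gave a missing share of 24.6% in K365T, beside 32.4% of all WT peaks. With a gene-end window of 2 kb, 3.60% of Hox pairs were missing. With percentiles of whole lists in place of shared ranks, WT was above all 9 mutants in 21 of the 92 Hox regions, beside 22.2% of all shared regions. It was below all 9 in 4 of the 92, beside 3.32% of all shared regions. The cause of these moves was not tested. RefSeq start windows in place of gene ends, an alternative chosen after seeing the data, gave 7.94% of 126 Hox pairs missing, beside 3.28% of all.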

Other observations

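The arrays also hold microRNA genes, and the miR-196 and miR-10 products printed here share seeds (bases 2 to 8, in capitals) and repress Hox transcripts. The seeds printed are each shared by a pair of RefSeq mature sequences that differ outside it.
mmu-miR-196b-5p: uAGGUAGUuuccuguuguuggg
mmu-miR-196a-5p: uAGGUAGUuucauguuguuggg
mmu-miR-10a-5p: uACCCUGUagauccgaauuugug
mmu-miR-10b-5p: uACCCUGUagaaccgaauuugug

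A peak lay over the Mir196b hairpin (chr6:52230081-52230165) in WT, at the 12.5th percentile, and in R377C and H455R, and in no other list. Mir615 (chr15:103014910-103015001), inside Hoxc5, carried one in R342C, S354F and Q418R, at 25.9 to 42.3. A merged region that begins within this hairpin (103014936 to 103016095) was found in all 10 lists, at 44.6 in WT. The 3 lists thus concern where a peak begins, and WT does not lack the site. The hairpins of Mir196a-1, Mir10a, Mir196a-2 and Mir10b had none in any of the 10 lists, and the nearest regions lay 211, 943, 2157 and 923 bp away.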
